A study of Mus musculus with 8 samples.

Results

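Muscle and sarcomere genes were examined in S0 cells, the least mature erythroid subset sorted from the mouse fetal liver at E12.5, of WT and Vps13a/Vps13c double knockout (DKO) embryos. The 35 genes were taken by symbol from 52636 gene identifiers. They comprise 12 genes of skeletal muscle, 10 of cardiac muscle, 5 shared by striated muscles, 3 of smooth muscle and 5 myogenic transcription factors. RNAseq was available for 4 wild-type (WT) and 4 DKO libraries, named WT1 to WT4 and DKO1 to DKO4 after the replicate numbers of the labels. Per the methods of the study, mice were kept on a C57BL/6J background, DKO embryos came from intercrosses of Vps13a+/-/Vps13c-/- mice, and the Vps13a allele had been recombined with a β-actin-Cre line, so that every cell of the embryo carried the deletions. Such intercrosses cannot give embryos that are WT for Vps13c, and the litters of the WT embryos were not clear from the sources used here. The paper describes the DKO embryos as smaller, with ears and digits delayed. Litter and exact stage therefore cannot be told apart from genotype. S0 cells were live cells negative for a lineage cocktail, CD71 and Ter119. That cocktail was directed against lymphoid and myeloid antigens, and this gate held no antibody against muscle or mesenchymal cells. Whether each library was 1 embryo was not given in the sources used here, so the p-values measure the spread between these libraries.

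Striated muscle contracts when calcium binds troponin C, troponin I and troponin T shift tropomyosin along the actin filament, and myosin heads, each with light chains, pull on the exposed actin. Titin, nebulin, α-actinin and desmin hold this array in register. Smooth muscle lacks troponin and is known by smooth muscle actin, transgelin and calponin, whereas Pax3, Pax7, Myf5, Myod1 and Myog commit cells to the skeletal lineage. Erythroid precursors have no sarcomere, but they contain non-muscle actin, myosin and tropomyosin.

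Whole-number counts per gene summed to 42114489 to 50886469 in the WT libraries and 36981439 to 42587815 in the DKO libraries. Levels are given as normalized counts, which are counts scaled to a common effective library size, and 3 counts in a library corresponded to 2.582 to 3.663 normalized counts. Vps13a had 1825.4 to 2108.5 normalized counts in WT and 606.8 to 1038.6 in DKO, whereas the whole-gene count of Vps13c, 503.7 to 663.7 in WT and 517.7 to 1087.7 in DKO, did not check its label. The groups also differed in sex-linked transcripts. Ddx3y, a Y-linked gene, had at least 2911 normalized counts in each WT library and 2516.3 in DKO3 but at most 41.0 in DKO1, DKO2 and DKO4, which had 18028.7 or more of Xist. The part of sex in the results was not tested beyond giving DKO3, the DKO library that resembled the WT libraries in these transcripts, on its own.

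A minority of the muscle genes was called higher in the DKO libraries. Of the 35 genes, 29 had enough counts to be tested, and 11, or 31.43% of the 35, were called higher in DKO, meaning an adjusted p under 0.05 (edgeR quasi-likelihood test, Benjamini-Hochberg over all 17378 genes tested) and a log2 fold change above 1. None was called lower at that threshold or at an adjusted or unadjusted p under 0.05 alone. Across all genes tested, 6.19% were called higher and 2.43% lower, so the share among the muscle genes was above the background. The genes, and the further gene lists below, were chosen with earlier results of these data known, so this excess is not independent support. The 11 genes were Myog and Myf5, the smooth muscle genes Acta2, Tagln and Cnn1, the desmin gene Des, the cardiac genes Actc1, Myl7 and Tnnt2, and the skeletal genes Neb and Acta1. In 16 of the 35 genes every DKO library lay above every WT library, against 13.5% of all genes tested. For these 16, log2 CPM (counts scaled to library size) compared by an exact permutation test, two-sided, gave p = 0.0286, the smallest that 70 arrangements of 4 against 4 allow. Full separation of the groups fixes that value, so it adds no support of its own. The DESeq2 test, which covered 33 of the 35 genes, called 16 muscle genes higher and 0 lower. Without WT4 the number called by edgeR fell to 6, with 5 of the 11 genes among them.

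**Figure D1:**
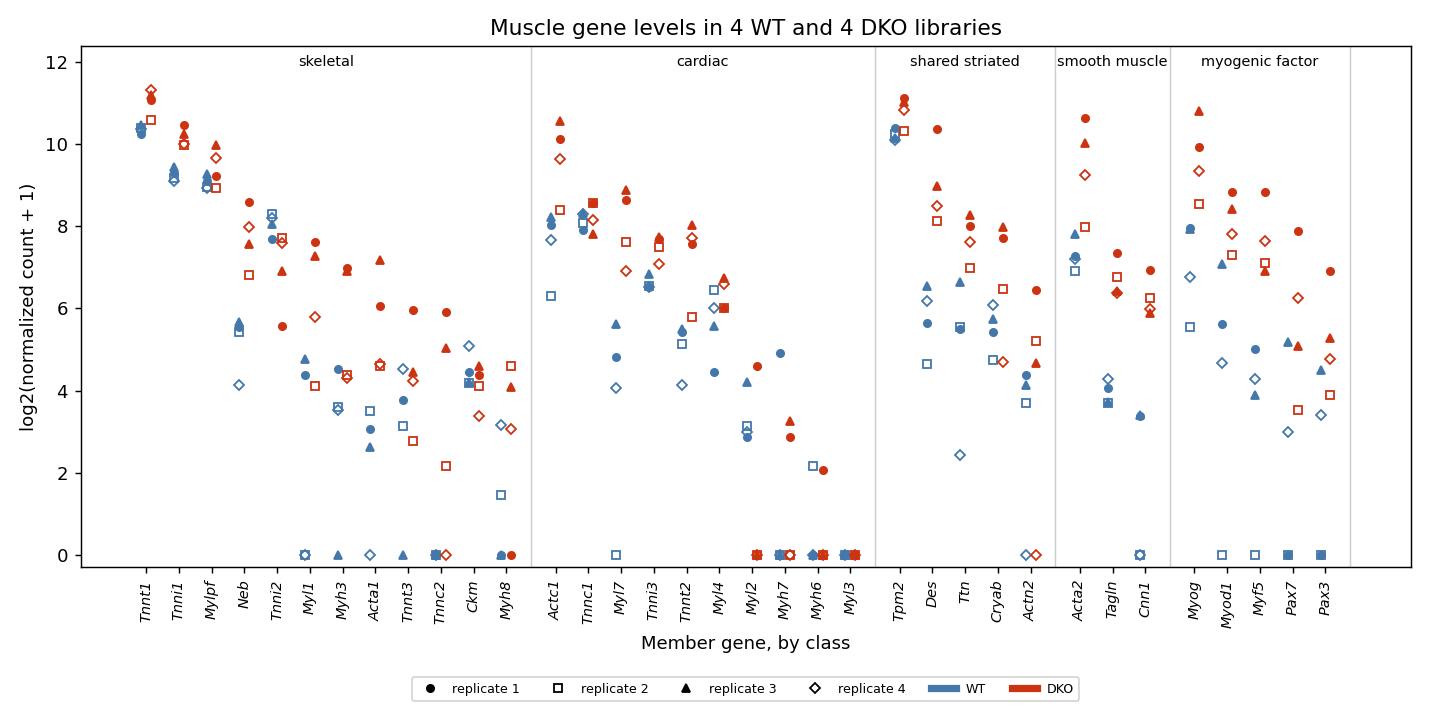
Level of each of the 35 muscle genes in each library, as log2 of the normalized count plus 1 (y axis), with genes grouped by class and ordered by DKO mean (x axis). Blue points are the 4 WT libraries, red points the 4 DKO libraries, and the symbol gives the replicate number; in 16 genes all red points lie above all blue points, while Tnnt1, Tnni1, Mylpf and Tpm2 are high in all 8 libraries.

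Promoter sequence was looked at for motifs known from muscle genes. A RefSeq promoter of GRCm38.p6 was found for 28 of the 35 genes, and the 250 bases before the start were searched on both strands for the CArG box, a site bound by serum response factor, and for CAGCTG, an E-box form bound by factors such as MyoD and myogenin. A CArG box was present in 4 of 28 (14.3%), against 1.4% of 27025 promoters of the same length, and CAGCTG in 9 of 28 (32.1%), against 12.8%. The 3 promoters below with a CArG box belong to genes called higher, and the 3 with CAGCTG to a called gene, Des, and to Mylpf and Tnni1, which had counts in every library. Each run is 120 bases ending at the base before the RefSeq start, read 5′ to 3′ on the strand of the gene, and the capitals mark the motif.
Actc1, chr2:114052876-114052995, minus strand: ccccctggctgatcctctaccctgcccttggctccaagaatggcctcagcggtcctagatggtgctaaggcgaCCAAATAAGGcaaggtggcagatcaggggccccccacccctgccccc
Acta1, chr8:123894776-123894895, minus strand: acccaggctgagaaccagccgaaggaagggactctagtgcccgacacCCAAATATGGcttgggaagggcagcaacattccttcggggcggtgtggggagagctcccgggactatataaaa
Myl7, chr11:5898783-5898902, minus strand: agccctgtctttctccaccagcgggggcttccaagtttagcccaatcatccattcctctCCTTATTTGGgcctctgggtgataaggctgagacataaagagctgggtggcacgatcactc
Des, chr1:75360172-75360291, plus strand: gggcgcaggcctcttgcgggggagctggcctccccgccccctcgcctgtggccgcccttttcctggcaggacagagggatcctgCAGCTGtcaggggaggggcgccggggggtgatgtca
Mylpf, chr7:127211488-127211607, plus strand: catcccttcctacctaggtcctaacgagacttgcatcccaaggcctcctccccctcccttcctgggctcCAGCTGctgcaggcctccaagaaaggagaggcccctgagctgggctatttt
Tnni1, chr1:135799301-135799420, plus strand: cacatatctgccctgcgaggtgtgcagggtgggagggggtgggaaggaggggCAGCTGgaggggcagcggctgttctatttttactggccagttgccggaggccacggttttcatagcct
The CArG box began 47, 73 and 61 bases before the start in Actc1, Acta1 and Myl7, and CAGCTG began 36, 51 and 68 bases before it in Des, Mylpf and Tnni1. The other CArG box, 85 bases before the start of Myl3, belonged to a gene without a count in any of the 8 libraries. A match describes the letters of the window and not a site in use.

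Of the 5 myogenic factors of the skeletal lineage, Myog and Myf5 were called higher in DKO. Myog (myogenin, which drives the fusion and differentiation of myoblasts; chr1:134289989-134292548 of GRCm38) had 250.3, 45.6, 244 and 108 normalized counts in WT1 to WT4 and 975, 371, 1797 and 657 in DKO1 to DKO4. The lowest DKO library was above the highest WT library, and the log2 fold change was 2.55 (standard error, SE, 0.61, adjusted p = 0.0179 in edgeR). Myf5, the earliest of the determination factors in the embryo (chr10:107482908-107486134), had 31.4, 0, 13.9 and 18.4 normalized counts in WT against 459, 136, 119.6 and 199 in DKO. Its log2 fold change was 3.85 (SE 0.91, adjusted p = 0.0179), and DKO1 was the highest of the DKO libraries. Both calls were lost without WT4, with adjusted p values of 0.0613 for Myog and 0.0574 for Myf5, while the log2 fold changes stayed at 2.39 and 3.92. Without DKO1 the log2 fold change of Myf5 was 3.26 and the call stayed.

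The other 3 myogenic factors did not pass the test. Myod1, the determination factor that can turn fibroblasts into muscle, had 48.2, 0, 135 and 24.5 normalized counts in WT against 457, 158, 343 and 226 in DKO. The groups did not overlap, but the WT libraries spread widely and the adjusted p was 0.101 at a log2 fold change of 2.51 (SE 0.99). Pax3, which marks the migrating precursors of limb and body wall muscle and also the neural crest, had 0, 0, 21.7 and 9.62 in WT and 119, 13.9, 37.8 and 26.1 in DKO (log2 fold change 2.62, adjusted p = 0.162). Pax7, a factor of muscle progenitors that is shared with the neural tube and crest, had 0, 0, 35.6 and 6.99 in WT and 235, 10.5, 33.0 and 75.2 in DKO (log2 fold change 3.03, adjusted p = 0.149). WT3 was the highest WT library for Myod1, Pax3 and Pax7, and in Pax3 and Pax7 it lay above at least 1 DKO library. DKO1 was the highest DKO library in these 3 genes, and without it the log2 fold changes of Pax3 and Pax7 were 1.70 and 1.87.

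All 3 smooth muscle genes were called higher in DKO. Acta2, smooth muscle α-actin, which is also made by pericytes and activated stromal cells (chr19:34241090-34255590), had 154, 119, 226 and 147 normalized counts in WT against 1608, 253, 1044 and 612 in DKO. The DKO libraries spread widely, and DKO2 lay just above WT3. The mean went from 161.4 ± 45.6 to 879 ± 583 (SD, n = 4 each), which is a log2 fold change of 2.45 (SE 0.50, adjusted p = 0.0104). Tagln, transgelin, an actin-binding protein of smooth muscle (chr9:45929619-45936058), had 15.7, 12.05, 12.2 and 18.4 in WT and 163, 108, 85.5 and 81.5 in DKO. It was the tightest of the 3, with a log2 fold change of 2.90 (SE 0.41, adjusted p = 0.00308) that stayed between 2.65 and 3.02 whichever library was left out. The antisense gene Gm48529 covers 62.42% of the Tagln exons, and since the strand setting of the counting was not given, the reads of both cannot be told apart. Gm48529 itself had 20.7 to 47.8 normalized counts in WT and 17.4 to 139.7 in DKO.

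Cnn1, calponin, which restrains smooth muscle myosin (chr9:22099216-22109630), had 9.42, 0, 9.56 and 0 normalized counts in WT against 122, 75.6, 58.6 and 62.7 in DKO. The WT libraries held at most 11 counts and each DKO library was above each of them. The log2 fold change was 4.05 (SE 1.06, adjusted p = 0.0254), and the call was lost without WT1 (adjusted p = 0.0575) and without WT4 (adjusted p = 0.0518). A block for the replicate number gave an adjusted p of 0.0513.

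Among the 5 genes shared by striated muscles, Des was called higher. It encodes desmin, the intermediate filament of all 3 muscle types, which fetal liver stellate cells also make (chr1:75360329-75368579; its promoter is given above). It had 49.2, 24.1, 92.1 and 71.7 normalized counts in WT against 1321, 281, 508 and 362 in DKO, so that even the lowest DKO library was far above the highest WT library. The log2 fold change was 3.38 (SE 0.59, adjusted p = 0.00582), and 2.69 without DKO1. Ttn, which encodes titin, the spring that spans the sarcomere from Z disc to M band, had 44.0, 45.6, 99.0 and 4.37 in WT and 257, 127, 310 and 196 in DKO. Its groups did not overlap, but its adjusted p was 0.0505 at a log2 fold change of 2.2 (SE 0.70). It passed without WT3 (adjusted p = 0.035), without WT4 (adjusted p = 0.0433) and under DESeq2 (adjusted p = 0.00629).

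Tpm2, β-tropomyosin, was by contrast abundant in both groups, with 1340, 1221, 1149 and 1099 normalized counts in WT against 2246, 1283, 2091 and 1819 in DKO. Its adjusted p was 0.0266, but the log2 fold change was 0.63 (SE 0.17), DKO2 lay below WT1, and the adjusted p exceeded 0.05 in 5 of 8 fits that left out a library, with a maximum of 0.0809. Cryab, αB-crystallin, a small chaperone of desmin that is found in many tissues, had 41.9, 25.8, 53.0 and 66.4 in WT and 209, 88.3, 254 and 25.1 in DKO. DKO4 was below all WT libraries for this gene, and the adjusted p was 0.103. Without DKO4 the log2 fold change of Cryab was 1.97 and the adjusted p 0.0271. Hspb2, on the opposite strand, shares 17.04% of the Cryab exons and had at most 25.2 normalized counts. Actn2, the α-actinin of the Z disc, had 19.9, 12.05, 16.5 and 0 in WT and 87.2, 36.0, 24.4 and 0 in DKO (adjusted p = 0.401).

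Of the 10 cardiac genes, 3 were called higher. Actc1, cardiac α-actin, which embryonic skeletal muscle also makes (chr2:114047282-114053548), had 261, 77.5, 301 and 201 normalized counts in WT against 1121, 338, 1512 and 805 in DKO. The groups were separated by a small margin, 301 in WT3 against 338 in DKO2, and the log2 fold change was 2.17 (SE 0.50, adjusted p = 0.0164; 0.0548 without WT4). Myl7, the regulatory light chain of atrial myosin (chr11:5896637-5898782), had 27.2, 0, 48.6 and 15.7 in WT and 402, 196, 475 and 119 in DKO. Its log2 fold change was 3.70 (SE 0.94, adjusted p = 0.0226), and the call was lost without WT1 (adjusted p = 0.0685) and without WT4 (adjusted p = 0.0755). Without WT3 the log2 fold change was 4.38. Tnnt2, cardiac troponin T, which is also made in embryonic skeletal muscle (chr1:135836354-135852260), had 41.9, 34.4, 44.3 and 16.6 in WT and 189, 54.6, 260.1 and 210.0 in DKO. DKO2 was only a little above the WT libraries here too, and the log2 fold change of 2.38 (SE 0.52, adjusted p = 0.0134) stayed past the threshold whichever library was left out.

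The other cardiac genes separated into those with steady counts and those near 0. Tnni3, cardiac troponin I, had 91.1, 92.1, 113 and 90.9 normalized counts in WT against 207, 180.2, 212 and 134 in DKO, or a log2 fold change of 0.92 (SE 0.27, adjusted p = 0.0363) that fell short of the fold required for a call. Tnnc1, the troponin C of heart and slow muscle, differed little, with 239.8, 269, 321 and 315 in WT and 377, 380.1, 223 and 283 in DKO (log2 fold change 0.14, standard error 0.23, adjusted p = 0.706). Myl4, the essential light chain of atrial and embryonic muscle, had 20.9, 86.9, 46.9 and 63.8 in WT and 63.0, 63.9, 106 and 95.1 in DKO (adjusted p = 0.404). The genes that mark the working ventricle and the mature atrium were at or near 0 in both groups and were not tested. Myl3, the ventricular essential light chain, had 0 counts in all 8 libraries. Myl2, the ventricular regulatory light chain, had 6.28 to 17.4 normalized counts in WT, 23.1 in DKO1 and 0 in the other 3 DKO libraries. Myh6 and Myh7, the cardiac myosin heavy chains, had 0 in 5 or more of the 8 libraries and at most 29.3.

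In the skeletal class, 2 of 12 genes were called higher. Neb, which encodes nebulin, the ruler along the skeletal thin filament (chr2:52136647-52378474), had 46.1, 42.2, 49.5 and 16.6 normalized counts in WT against 384, 112, 190.5 and 251 in DKO. The groups were well apart, and the log2 fold change was 2.60 (SE 0.48, adjusted p = 0.00731). Acta1, skeletal α-actin (chr8:123891769-123894751), had 7.33, 10.3, 5.21 and 0 in WT and 66.2, 23.2, 144 and 24.0 in DKO. Its log2 fold change of 3.47 (SE 0.99, adjusted p = 0.0344) was the least stable call. The adjusted p exceeded 0.05 in 7 of 13 alternatives, among them each fit without 1 WT library (0.053 to 0.0901) and the fit without DKO3 (0.0854), where the log2 fold change was 2.70.

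Several skeletal genes were already abundant in WT S0 cells and had smaller fold changes. Tnnt1, slow skeletal troponin T, was the most abundant of the 35 genes, with 1212, 1341, 1429 and 1331 normalized counts in WT against 2183, 1541, 2339 and 2560 in DKO. The groups did not overlap and the difference passed the test, at a log2 fold change of 0.70 (SE 0.15, adjusted p = 0.0124). Tnni1, slow skeletal troponin I, had 629, 582, 699 and 553 in WT and 1424, 1021, 1220 and 1024 in DKO, or a log2 fold change of 0.93 (SE 0.15, adjusted p = 0.00454). Mylpf, the regulatory light chain of fast skeletal myosin, had 551, 495, 620.3 and 491 in WT and 599.96, 487, 1011 and 818 in DKO, with overlapping groups and an adjusted p of 0.203. These 3 transcripts were far above the counting floor in every WT library.

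Tnni2, fast skeletal troponin I, went in the opposite direction without passing the test, with 205, 318, 265 and 292 normalized counts in WT against 46.2, 208, 119.6 and 193 in DKO (log2 fold change -0.93, standard error 0.42, adjusted p = 0.146). Ckm, muscle creatine kinase, stayed low at 17.2 to 33.2 in WT and 9.40 to 23.2 in DKO. Myh3, the embryonic myosin heavy chain, had 22.0, 11.2, 0 and 10.5 in WT and 125, 19.8, 119.6 and 18.8 in DKO, and Myl1, the fast essential light chain, had 19.9, 0, 26.1 and 0 in WT and 195, 16.3, 154 and 54.3 in DKO. Both were high in DKO1 and DKO3 and overlapped with WT in DKO2, and Myh3 also overlapped with WT in DKO4. The adjusted p values of Myh3 and Myl1 were 0.0961 and 0.107 by edgeR and 0.0316 and 0.0428 by DESeq2. Tnnt3, fast troponin T, had 12.6, 7.75, 0 and 21.9 in WT and 60.9, 5.81, 20.8 and 17.8 in DKO (adjusted p = 0.400). Tnnc2, fast troponin C, had 0 in every WT library and 58.8, 3.49, 31.7 and 0 in DKO, and 74.0% of its exons lie opposite Ube2c, which had 10489.4 to 14349.7 normalized counts. Myh8, the perinatal myosin heavy chain, had at most 7.87 in WT and 23.2 in DKO. Tnnc2 and Myh8 were not tested.

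**Figure D2:**
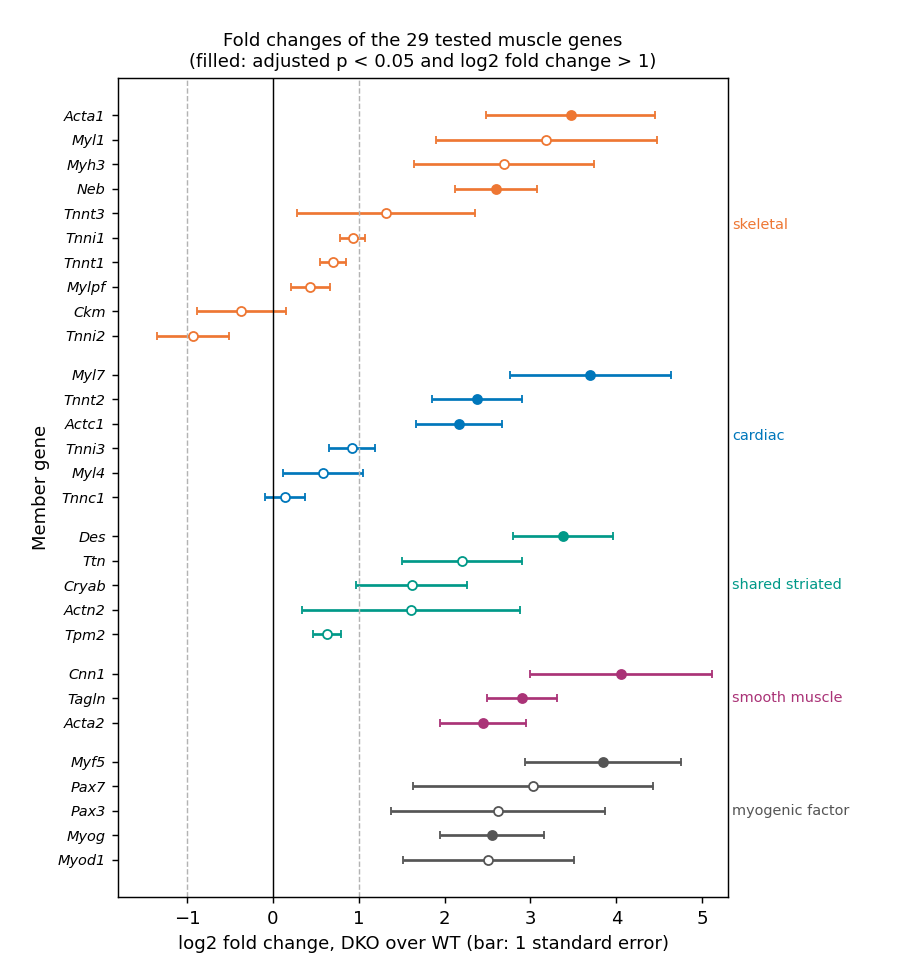
Log2 fold change of DKO over WT (x axis) for the 29 tested muscle genes (y axis, grouped by class), with bars of 1 standard error. Filled points are the 11 genes called higher, from 2.17 for Actc1 to 4.05 for Cnn1; Tnni2 and Ckm are the genes below 0, and the abundant Tnnt1, Tnni1, Tpm2 and Mylpf have the shortest bars and lie between 0.43 and 0.93.

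The classes were then set side by side. Called higher were 3 of 3 smooth muscle genes, 2 of 5 myogenic factors, 3 of 10 cardiac, 1 of 5 shared striated and 2 of 12 skeletal genes. The median log2 fold change of the tested genes was 2.90 for smooth muscle, 2.62 for the myogenic factors, 1.62 for the shared striated, 1.54 for the cardiac and 1.12 for the skeletal genes, and 2.38 for all 29, against 0.0324 for all 17378 genes. The smooth muscle class holds only 3 genes, and of 14 further smooth muscle and pericyte genes 1 was called higher and the tested ones had a median of 1.031 on the log2 scale. Smtn, smoothelin of contractile smooth muscle, named after its values were seen, was lower in every DKO library than in any WT library, at a log2 fold change of -0.51 (adjusted p = 0.0402). The classes differ in size and in starting level, and whether they respond differently was not tested. Of the 17 tested genes with at least 10 counts in all 4 WT libraries 7 were called, and of the 12 with fewer in at least 1 WT library 4 were called. Of these 4, Acta1 and Cnn1 had fewer than 10 counts in 3 of 4 WT libraries, and Myl7 and Myf5 had 0 in WT2. Each of the 4 had at least 10 counts in every DKO library. All 4 passed the count filter only with the DKO libraries, where they are high, so their calls are weaker support. They are among the 11. Cnn1 is among the 3 of 3 smooth muscle genes, Myl7 among the 3 called cardiac genes and Myf5 among the 2 called myogenic factors.

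The DKO libraries were not alike. The median log2 ratio of all 35 genes to their WT mean, with 1 normalized count added, was 2.424 in DKO1, 0.728 in DKO2, 2.274 in DKO3 and 0.946 in DKO4, and -0.255 to 0.183 in the WT libraries. DKO1 was the highest DKO library in 18 genes and DKO3 in 12, while DKO2 was the lowest in 20. The class medians ranged over the 4 DKO libraries from 0.231 to 1.124 for the cardiac, from 2.406 to 3.396 for the smooth muscle and from 1.189 to 3.761 for the myogenic genes. The summed normalized counts in DKO ranged from 437.1 to 1892.3 for the smooth muscle genes and from 689.3 to 2330.7 for the myogenic factors. DKO3, on its own, exceeded every WT library in 26 of the 35 genes, DKO1 in 27, DKO4 in 22 and DKO2 in 21. The number of genes called higher was 11 without DKO1, 11 without DKO2, 10 without DKO3 and 13 without DKO4.

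**Figure D3:**
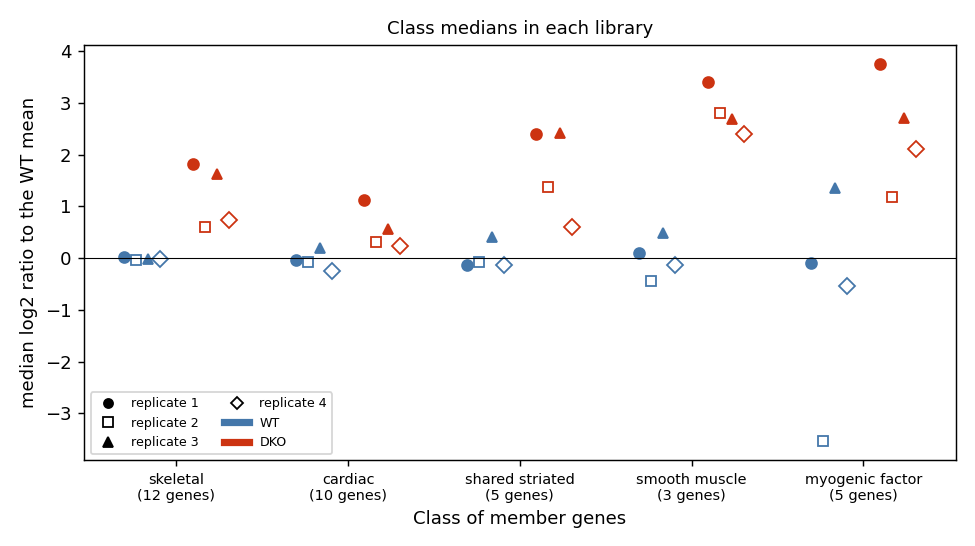
Median log2 ratio to the WT mean (y axis) of each class of muscle genes (x axis) in each library, with 1 normalized count added to each value. Red DKO points lie above all blue WT points in the skeletal, cardiac, shared striated and smooth muscle classes, while for the myogenic factors WT3 lies above DKO2.

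Levels were compared between genes per kb of exon, as normalized counts per kb. In WT the order began with Tnnt1 at 602.6, Mylpf at 507.8, Tpm2 at 413.4, Tnnc1 at 274.9 and Tnni2 at 180.3 per kb. In DKO it began with Tnnt1 at 978.2, Mylpf at 686.4 and Tpm2 at 639.4, followed by Myog at 635.5, Actc1 at 583.3, Myl7 at 505.5 and Acta2 at 400.4 per kb. Myog had 108.4, Actc1 129.9, Myl7 38.82 and Acta2 73.48 per kb in WT. Compared within each DKO library, Tnnt1 lay above Mylpf, Tpm2 and Actc1 per kb in all of them, while Myog exceeded Tnnt1 in DKO3. The order among Mylpf, Tpm2, Myog and Actc1 changed from library to library and is not resolved. As a share of the whole library the transcripts were rare, since the 11 called genes together made up 8.458 to 23.68 CPM in WT and 43.35 to 164.2 CPM in DKO. In bulk samples a change in the number of cells of a type and a change in RNA per cell cannot be told apart.

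Other genes of the same pathways and their non-muscle relatives were counted for comparison. Of 66 further muscle genes on 4 lists, 33 were tested and 7, or 10.61% of the 66, were called, each of them higher, against 6.19% of all genes tested. By list, 4 of 8 tested regulators and 1 of 6 tested sarcomere and Z disc genes were called. So were 1 of 8 tested excitation and calcium genes and 1 of 11 tested smooth muscle and pericyte genes. As shares of all genes listed, tested or not, these were 33.33% of 12, 4.0% of 25, 6.667% of 15 and 7.143% of 14. The 6.19% counts tested genes only, so neither these shares nor the 10.61% are on its basis. The regulators held 4 of the 7, among them Gata4 (log2 fold change 3.01, adjusted p = 0.00358) and Hand2 (4.39, adjusted p = 0.0252), transcription factors of the heart and other mesoderm, and Tbx5 (3.14, adjusted p = 0.0407), a factor of heart and forelimb. Gata4 and Hand2 are also made by liver mesenchyme or other mesenchyme of the embryo. Outside the regulators the called genes were Myh7b, a sarcomeric myosin heavy chain (2.39, adjusted p = 0.0266), Atp2a1, the calcium pump of fast muscle (2.50, adjusted p = 0.0381), and Notch3, a receptor of pericytes and vascular smooth muscle (2.01, adjusted p = 0.0240). Of 25 further sarcomere and Z disc genes, 19 had too few counts to be tested. The number of further muscle genes called was 1 without WT1, 1 without WT4, 4 without WT2, DKO1 or DKO4, and 3 with the replicate number as a block. None of 13 non-muscle relatives, such as Actb and Myh9, was called, and their median log2 fold change was -0.032. At an adjusted p under 0.05 alone, Myl6 (0.42) and Actn1 (0.65) were higher and Myl12b (-0.34), Tpm3 (-0.45) and Actn4 (-0.41) lower.

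Markers of other cells of the embryo were examined in the same libraries. Of 12 mesenchyme markers, among them collagen genes, Pdgfra and Twist1, 10 were called higher, and their summed normalized counts were 4924.5 to 8406.5 in WT and 48678.8, 16648.9, 16235.4 and 24414.3 in DKO1 to DKO4. The 11 called muscle genes summed to 893.3, 364.9, 1046.8 and 613.7 in WT and 6809.7, 1949.3, 6193.6 and 3382.2 in DKO. DKO1 was the highest library in both sums, and DKO3 was second for the muscle genes. In the mesenchyme sum DKO3 lay just below DKO2, and that order hung on Reln, a marker that was not called. Reln had 3334.9 normalized counts in DKO2 and 1040.2 in DKO3. The 8 neural markers summed to 118.8 to 232.5 in WT and 2701.4, 240.6, 417.5 and 325.0 in DKO. Only 4 of them had enough counts to be tested, and 1 of these 4 was called higher. Hepatoblast markers, the largest of these sums, gave 498779.6 to 694781.2 in WT and 407052.7, 608767.5, 170265.6 and 522869.7 in DKO over 10 genes, with a median log2 fold change of -0.361, so that DKO3 combined a high muscle sum with the lowest hepatoblast sum. The 10 erythroid markers summed to 36880.9 to 42835.8 in WT and 33388.5 to 52339.4 in DKO, with a median log2 fold change of 0.144. Macrophage markers summed to 2369.8 to 3246.1 in WT and 581.0 to 1585.5 in DKO, and endothelial markers to 3997.8 to 5153.7 in WT and 2218.1 to 3189.0 in DKO, with no overlap of the sums. Called lower were 1 of 6 macrophage and 1 of 8 endothelial markers, against 2.43% of all genes tested. The part of mesenchymal or other non-erythroid cells in the muscle gene differences was not tested.

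**Figure D4:**
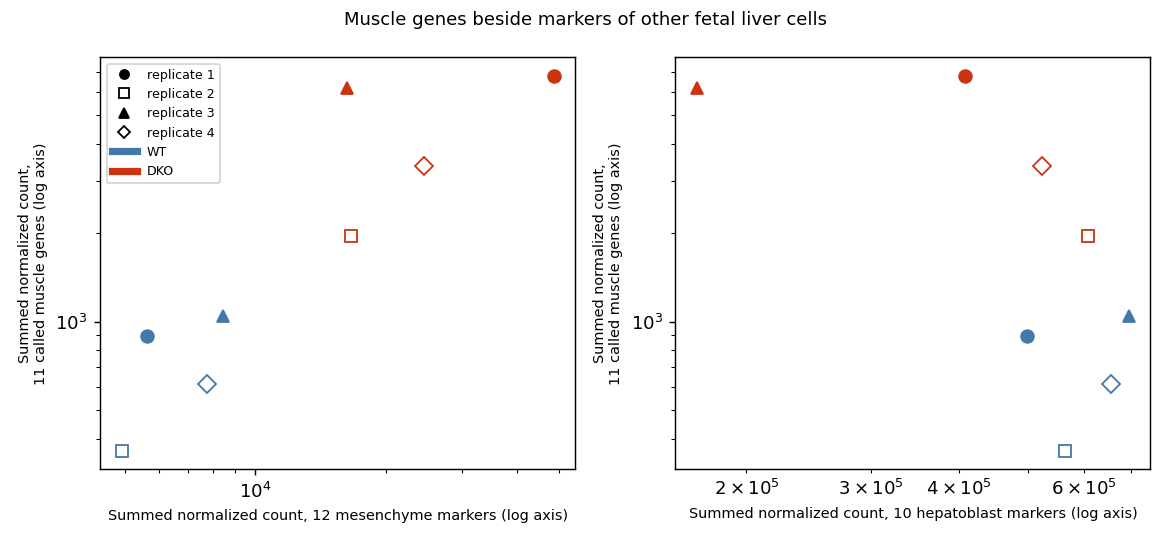
Summed normalized counts of the 11 called muscle genes (y axis, log scale) against those of 12 mesenchyme markers (left, x axis, log scale) and 10 hepatoblast markers (right, x axis, log scale), 1 point per library. The 4 DKO libraries (red) lie above the 4 WT libraries (blue) in the muscle and the mesenchyme sums, while DKO3 has the lowest hepatoblast sum.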

How the data were processed

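RNA of S0 cells from 4 WT and 4 DKO fetal liver samples was made into libraries by template switching from low input. The authors trimmed reads with fastp 0.21.0, mapped them to mm10 with HISAT2 2.2.1 and deposited raw counts per gene, whole numbers made with StringTie 1.3.3b that were neither normalized nor pooled. The strand setting was not given in the sources used here. Groups came from the labels, and columns were matched to samples by name.

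Of 52636 identifiers, 52489 matched a GENCODE M21 symbol without the version. Counts were filtered with filterByExpr, scaled by TMM and tested with the robust quasi-likelihood test of edgeR 4.0.16 (R 4.3.3), with Benjamini-Hochberg adjustment over 17378 genes and no covariate. Standard errors were taken from the fold change and the F statistic. Normalized counts are counts divided by effective library size and multiplied by its mean. Single genes were also compared by an exact permutation test over 70 arrangements. No library was a copy of another, the smallest chi-square per gene within a group being 18.27. In simulated counts for this comparison over 17378 genes, 187 of 200 changed genes were called in the right direction and 10 unchanged genes were called. The simulation gave every gene the same dispersion, that is, spread beyond counting error. Its rate therefore does not carry over to muscle genes that spread more widely between libraries. Other settings tried were the DESeq2 1.42.0 Wald test, scaling by total counts or by the upper quartile in place of TMM, a fit without the filter, a minimum of 10 counts in each library, each library left out, replicate number as a block, and calls on adjusted p alone. Depth was at least 36981439 counts per library, so that counting error limits the genes near 0 and the spread between libraries limits the others.

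All 35 genes are named, with values in every library for those that reach 50 normalized counts in a library or are called. From the other lists, called genes with the smallest p were named, at most 3 per list and direction (1 of them is not reported here), and Tbx5, Smtn and the relatives listed at an adjusted p under 0.05 were added after their values were seen. The genes and the lists were chosen with earlier results of these data known. Promoter sequences are those of RefSeq, GRCm38.p6. The 120-base runs of Actc1 and Tnni1 end with 12 and 19 bases that GENCODE places in a first exon, and the promoter of Myl3 was not printed. The windows of Actc1, Mylpf and Tnni1 lie inside the GENCODE span of the gene, and Tnni1 has another RefSeq promoter. Distances hold for the RefSeq start used.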

Additional observations from a re-analysis of the deposited data

Results flagged for a closer look

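Among the 4 WT libraries, WT3 stood apart for Tnni3, with 112.9 normalized counts against 90.92 to 92.09 in the other 3, a gap of 0.947 of the range (Dixon's criterion). It was the single such case in 58 groups of 4 libraries examined, where chance gives about 1 in 20. WT3 still lay below all 4 DKO libraries for this gene.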

How the results depend on the processing

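Over 14 alternatives and the 29 tested genes, 393 log2 fold changes were obtained, of which 366 kept their direction and side of the threshold, 15 lost the call, 12 gained it and 0 changed sign. The number of muscle genes called higher was 11; it was 16 with DESeq2, 14 with upper-quartile scaling, 11 without TMM, 10 without the filter, 15 without the fold threshold and 7 with at least 10 counts in every library, which tested 16 of them. Leaving out a library gave 6 (without WT4) to 13 (without DKO4). None was called lower in any alternative. The further muscle genes called numbered 7; they were 12 with DESeq2, 3 with at least 10 counts in every library and 1 to 9 with a library left out, the lowest without WT1 or WT4. DESeq2, upper-quartile scaling and the unfiltered fit moved the median of all genes to 0.145, 0.141 and 0.128 on the log2 scale, from 0.0324, and Tnni1 and Tnni3 passed the fold threshold under upper-quartile scaling (1.04 and 1.03).

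The replicate number as a block gave 10 muscle genes called higher, 9 of them shared, and 3 further muscle genes. Samples with the same number did not deviate together (r = -0.0893, 0.0433, -0.0206 and -0.00748), so the labels give no pairing beyond the number. Counts near 0 limit Tnnc2, Myh6, Myh7, Myh8, Myl2 and Myl3, which could not be compared at this depth.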
